A study of Homo sapiens with 2 samples.

Results

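The genes RPLP0, RPLP1, RPL6, RPL11, RPL24 and RPL29 encode proteins of the large subunit of the cytosolic ribosome, the first pair those of its stalk. They were taken from a deposited list of RNA peaks as those large-subunit genes with a peak that were not grouped with the hosts of intronic small nucleolar RNAs. The 6 genes held 7 of the 236 distinct peaks in the list, 1 peak each and 2 for RPL6. The genes were thus chosen by their read counts, through the peaks called from them in these libraries, so having a peak is not a result and the counts are given as a description. The experiment was RNA immunoprecipitation followed by sequencing (RIP-seq) in ARP1, an established human multiple myeloma line that was kept in culture without any treatment named in the labels. An antibody against SFRS8, a regulator of pre-mRNA splicing also named SFSWAP, gave 1 library (the IP library), and RNA of the same line without antibody gave 1 input library, called the control. The labels' protocol also mentions an antibody against m6A, a methylated form of adenosine in RNA, and whether that step was used for these libraries is unclear. Each group had 1 library, so no value below has a replicate check and no test between conditions was made.

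Each peak carries a whole number of reads from both libraries, and the measure used is the IP count divided by the control count, called the ratio. The list does not give the size of the libraries, so the depth is unknown, a ratio under 1 does not show depletion, and only the order among peaks can be read. The header does not say which library each count came from. The unprefixed count was taken as IP and the count marked CTL as control, and exchanging them would turn every order by ratio. Matches on control reads would then rest on the other count and were not rebuilt that way. The interval of a ratio is an exact Clopper-Pearson 95% interval. The interval of a quotient of ratios is the exact conditional 95% interval of an odds ratio. Both cover counting error only, because PCR copies cannot be told from separate molecules. Over all peaks the list held 12068 IP and 87259 control reads, the median ratio was 0.190, and the smallest IP count of any peak was 11. Of 12 plasma cell marker genes, 5 had a peak (ITGB7, JCHAIN, MEF2C, MZB1 and XBP1), and of 23 markers of stroma and of erythroid, myeloid and T cells, 0 had one.

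The large ribosomal subunit joins amino acids into protein. Its stalk is built on P0, the product of RPLP0, which binds the large-subunit rRNA and carries pairs of the small acidic proteins P1 and P2, the products of RPLP1 and RPLP2. The stalk recruits and activates the GTPases of translation, elongation factors among them. RPL11 forms a particle with RPL5 and 5S rRNA that is built into the subunit and, when free, can bind the p53 regulator MDM2. RPL24 takes part in a contact between both subunits. Messenger RNAs of ribosomal proteins usually begin with an unbroken run of pyrimidines (C or T in the DNA), the terminal oligopyrimidine tract, through which their translation follows growth signals. Plasma cells and myeloma cells make large amounts of secreted protein.

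The start sites of the 6 genes are shown because this tract is a sequence feature that the choice of genes did not use. Each line gives 30 bases of RefSeq sequence on GRCh38.p14, 10 before the annotated start and 20 from it on, along the strand of the gene, and capitals mark the longest run of C or T that has a base within 5 bases of the start.
RPLP0: ggcgcgaggCCCTTCTCTCgccaggcgtcc
RPLP1: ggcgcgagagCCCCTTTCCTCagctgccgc
RPL11: gctccgCTTTCTCTTCCTgctctccatcat
RPL24: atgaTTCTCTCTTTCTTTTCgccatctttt
RPL29: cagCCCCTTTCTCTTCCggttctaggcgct
RPL6: gacggcgcgtgcaCTgtgttcctggtcctg
The windows lie at chr12:120201092-120201121 on the minus strand for RPLP0, chr15:69452808-69452837 on the plus strand for RPLP1 and chr1:23691796-23691825 on the plus strand for RPL11. Those of the remaining genes, all on the minus strand, lie at chr3:101686699-101686728 for RPL24, chr3:51995876-51995905 for RPL29 and chr12:112409266-112409295 for RPL6.

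Of the 6 genes, 5 had a run of at least 10 pyrimidines at a RefSeq start. Its length was 10 bases in RPLP0, 11 in RPLP1, 12 in RPL11, 14 in RPL29 and 16 in RPL24. The run was 2 bases at the RPL6 start shown and 5 bases at its other RefSeq start, and RPL11 also had a second RefSeq start with a run of 5. A run of at least 10 was found in 8.68% of 15843 protein-coding genes with a start sequence, counting each gene by its longest run, and a run of 10 purines, which is the same feature on the opposite strand, in 4.89%. Among the other ribosomal protein genes with a start sequence, 42 of 57 had such a pyrimidine run. It was found in 6 of 12 of those with a peak and in 36 of 45 of those without one. Among protein-coding genes with a peak that are not ribosomal protein genes, it was found in 14 of 122. The run was thus also found in most of the other ribosomal protein genes with a start sequence. None of the 7 peaks reached a RefSeq start: their 5′ edges lay between 408 bases past it, in RPLP1, and 4497 bases past it, for the farther RefSeq start and peak of RPL6. From the gene starts given in the peak list, the 5′ edges lay between 442 bases, in RPLP1, and 11893 bases, for the 3′ peak of RPL6.

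Both stalk genes gave almost the same ratio from very different peaks. The RPLP0 (ENSG00000089157) peak ran on the minus strand of chromosome 12 from 120198546 to 120199405 and had 64 IP and 763 control reads. Its ratio was 0.0839 (0.0639 to 0.108). The RPLP1 (ENSG00000137818) peak ran on the plus strand of chromosome 15 from 69453226 to 69459750 and had 54 IP and 644 control reads, which gave 0.0839 (0.0623 to 0.111). The quotient of both ratios, RPLP0 over RPLP1, had an interval of 0.675 to 1.49, so a difference inside that interval was not detectable at this depth. Control reads per kilobase of peak were 887 in RPLP0 and 98.7 in RPLP1, and IP reads per kilobase were 74.4 and 8.28. Among the 236 peaks, RPLP0 ranked 6 from the top by control reads per kilobase and RPLP1 ranked 95. RPLP2, the gene of the remaining stalk protein, had no peak in the list.

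The 4 RPL genes spanned a wider range than the stalk genes, and RPL6 held both ends of it. RPL29 (ENSG00000162244), a gene for a small basic protein of the subunit, had 56 IP and 439 control reads on the minus strand of chromosome 3 from 51993536 to 51995175. Its ratio was 0.128 (0.0948 to 0.169). RPL24 (ENSG00000114391) had the fewest reads of the 7 peaks, 28 IP and 241 control reads on the minus strand of chromosome 3 from 101682666 to 101683075. Its ratio of 0.116 (0.0756 to 0.172) therefore had a wide interval. RPL11 (ENSG00000142676) had the most IP reads of the 7, 113 against 970 control reads, on the plus strand of chromosome 1 from 23692751 to 23698750. Its ratio was 0.116 (0.0950 to 0.142).

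RPL6 (ENSG00000089009) had peaks with unlike ratios at neighbouring places in one gene. The peak at the 3′ end, on the minus strand of chromosome 12 from 112405226 to 112406945, had 64 IP and 1318 control reads. Its ratio of 0.0486 (0.0372 to 0.0624) was the lowest of the 7. The inner peak, from 112408236 to 112408665, had 46 IP and 345 control reads, and its ratio of 0.133 (0.0958 to 0.182) was the highest. Control reads per kilobase were nearly alike, 766 at the 3′ end and 802 in the inner peak, whereas IP reads per kilobase were 37.2 and 107. The inner peak thus had 2.75 times the ratio of the 3′ peak (1.80 to 4.15), a difference beyond counting error. By IP reads per kilobase the inner peak ranked 6 of 236 and the 3′ peak 50. With both peaks summed, RPL6 had 110 IP and 1663 control reads and a ratio of 0.0661 (0.0540 to 0.0803), the lowest of the 6 genes.

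**Figure D1:**
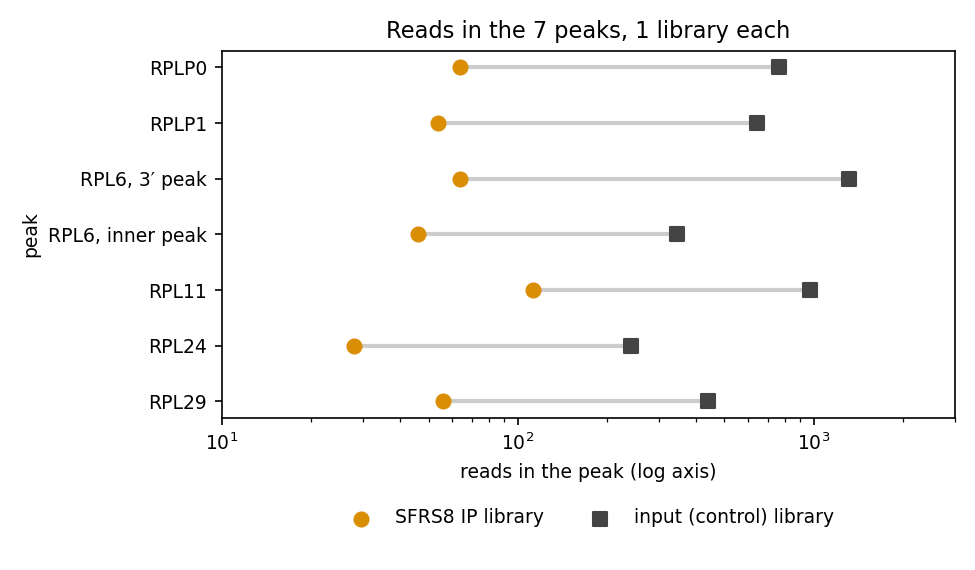
Reads in each of the 7 peaks on a log axis, with circles for the IP library and squares for the control library, 1 library each, and a grey line joining both. Control reads exceed IP reads in every peak, and the gap is widest for the 3′ peak of RPL6 (64 against 1318).

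The 7 peaks took a larger share of the control reads than of the IP reads. Together they held 425 IP and 4720 control reads, which is 3.52% of IP reads and 5.41% of control reads in all peaks, and a summed ratio of 0.0900 (0.0813 to 0.0995). All 7 lay below the median of all peaks, and the interval lay wholly below it for 7 of 7, against 40.3% of all peaks. Set against the median over the 221 peaks outside an interval of rRNA gene copies on chromosome 21, which was 0.162, the interval lay wholly below for 4 of the 7, against 35.6% of all peaks. It then reached above the median for RPL24, RPL29 and the inner peak of RPL6. A ratio at least 2-fold under the median of all peaks, which is 0.0948 or less, was found for 3 of the 7, the peaks of RPLP0, RPLP1 and the 3′ end of RPL6, against 33.1% of all peaks. This count is close to the background. With the median outside the chromosome 21 interval it fell to 1. The share of all peaks at that lower cut is not given here, so this 1 has no background beside it. Every peak in the list held at least 11 IP reads, so peaks with few control reads could not lie this low. The 7 peaks held 241 or more control reads each, against a median of 145 over all peaks. These shares of all peaks are therefore not like for like with the counts of the 7. A ratio at least 2-fold above the median was found for 0 of the 7, against 32.6% of all peaks. In the order by ratio, from the lowest, the 3′ peak of RPL6 was followed by RPLP1, RPLP0, RPL24, RPL11, RPL29 and the inner peak of RPL6. Of the 6 neighbouring pairs in this order, the 3′ peak of RPL6 and RPLP1 differed beyond counting error, RPLP1 being 1.73 times higher (1.16 to 2.55), and the intervals of the other 5 held equality.

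The stalk genes did not differ from the RPL genes beyond counting error when all were summed, and were lower than them without RPL6. The stalk peaks summed to 118 IP and 1407 control reads, with a ratio of 0.0839 (0.0689 to 0.101). The 5 RPL peaks summed to 307 and 3313 reads, a ratio of 0.0927 (0.0822 to 0.104). The stalk ratio was 0.905 times the RPL ratio (0.719 to 1.13), so a difference was not detectable by counting error. Without RPL6 the RPL genes summed to 197 and 1650 reads, a ratio of 0.119 (0.102 to 0.138), and the stalk ratio was 0.702 times that (0.548 to 0.897). A single gene therefore decided this comparison. Among the 10 pairs of a stalk peak and an RPL peak, the stalk peak was lower beyond counting error in 4, those with RPL29 and the inner peak of RPL6. It was higher in 2, those with the 3′ peak of RPL6, and the interval held equality in 4, those with RPL11 and RPL24. Intervals were not adjusted for the number of pairs.

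Ratios fell with control signal over the whole list, so each peak was also set beside peaks with similar control reads per kilobase, within 2-fold of its own. Over the 224 peaks with control reads, the rank correlation of the ratio with control reads per kilobase was -0.62, a description only, because both quantities hold the control count. Beside such peaks, the order of the members changed: 4 of the 7 lay above the median of their similar peaks and 3 below it. The inner peak of RPL6 lay highest, above 29 of 34 similar peaks and at 2.32 times their median of 0.0574. RPL24 followed, above 33 of 40 and at 2.02 times their median. RPL29 lay above 37 of 52, at 1.69 times their median of 0.0753. These 3 peaks thus lay below the median of the whole list and above that of peaks with similar control reads per kilobase.

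The stalk genes, equal in ratio, fell on opposite sides of their similar peaks when matched on control reads per kilobase. RPLP0 lay above 18 of 27, at 1.51 times their median of 0.0555. RPLP1 lay above 19 of 64, at 0.545 times their median of 0.154. RPL11 was near the middle, above 26 of 55 and at 0.932 times their median of 0.125. The 3′ peak of RPL6 lay above 14 of 35, at 0.832 times their median. The similar peaks of different members overlap, so these places are not independent of each other. Every peak held at least 11 IP reads, so similar peaks with few control reads could not have a low ratio. Those of RPLP1, which had 644 control reads, included a peak of SLCO5A1 with 25 and a ratio of 2.48. The part of this floor in the places above was not tested. When peaks were matched on control reads per peak and not per kilobase, 7 of the 7 lay above the median of their similar peaks. RPL11 was then the highest, above 37 of 44, RPLP1 lay above 34 of 55, and the 3′ peak of RPL6 above 17 of 33. RPL24 moved to the middle of its similar peaks, above 38 of 73 and at 1.08 times their median. The inner peak of RPL6 lay above 49 of 70, RPL29 above 43 of 65 and RPLP0 above 34 of 52. The places of RPLP1, RPL11, RPL24 and both peaks of RPL6 thus moved with whether peak width entered the match. Those of RPL29 and RPLP0 changed less.

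**Figure D2:**
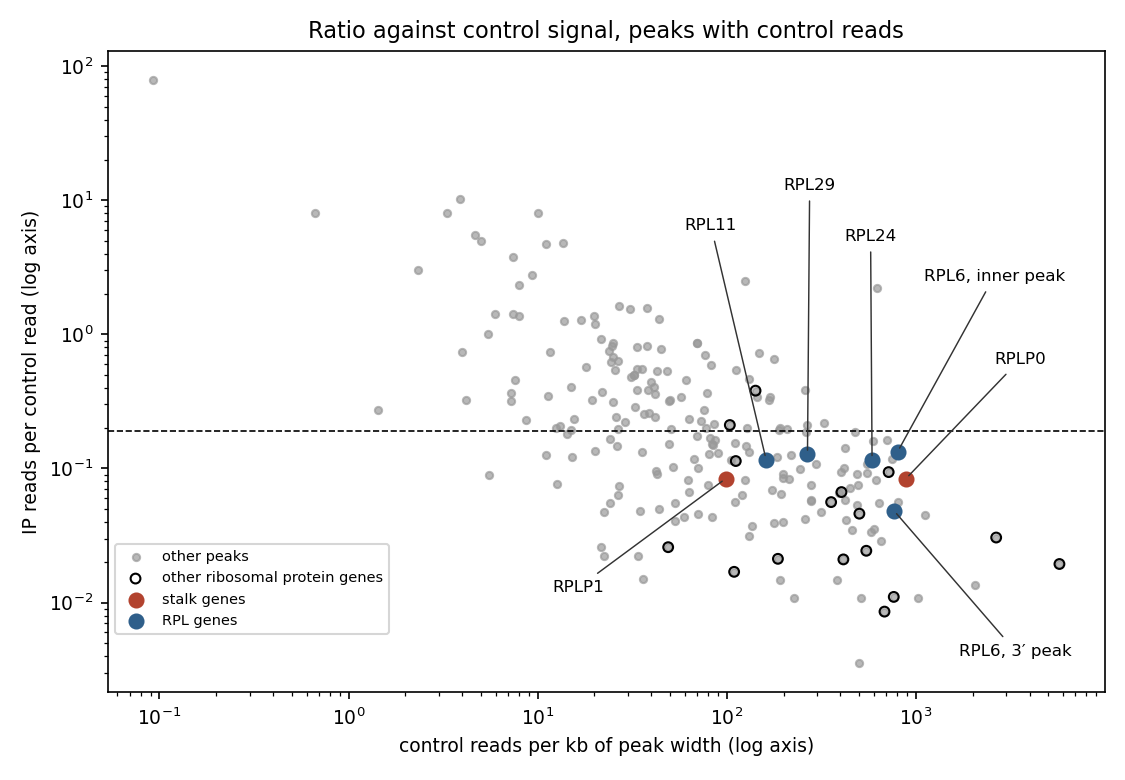
IP reads per control read against control reads per kilobase of peak width, both on log axes, for the 224 peaks with control reads. Grey points are other peaks, open circles other ribosomal protein genes, red points the stalk genes and blue points the RPL genes, and the dashed line is the median of all peaks (0.190). RPLP0 and RPLP1 sit at one height, 0.0839, but at 887 and 98.7 control reads per kilobase.

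By the rule of the closest control signal, the nearest other protein-coding peak had a higher ratio than the member in 4 cases and a lower one in 3. RPLP0 at 887 control reads per kilobase was nearest to EVI2B at 1024, with 12 IP and 1101 control reads and a ratio of 0.0109 (0.00561 to 0.0191). Both RPL6 peaks were nearest to RPS4X, a small-subunit gene at 766, whose ratio was 0.0110 (0.00725 to 0.0161). The lower ratios were those of EVI2B and RPS4X. RPLP1 was nearest to RPL7A (0.211), RPL11 to the linker histone gene H1F0 (0.326), RPL24 to a peak of the elongation factor gene EEF1G (0.160) and RPL29 to the lysyl-tRNA synthetase gene KARS (0.211, 0.103 to 0.397). Of the RPL7A peak, only 13.0% of the bases lay in RPL7A. The ratios of peaks with like control signal thus ranged widely.

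The peaks differed in where they lay on the gene, and width went with strand. The peaks of RPLP0, RPL24, RPL29 and RPL6, all on the minus strand, were 410 to 1720 bases wide and lay wholly inside the listed gene. The plus-strand peaks of RPL11 and RPLP1 were 6000 and 6525 bases wide and ran 1915 and 3556 bases past the 3′ end of the gene. Only 45.5% of the bases of the RPLP1 peak lay in RPLP1, and its centre lay past the gene's end, whereas 68.1% of the RPL11 peak lay in RPL11. The same held for the list as a whole: the median width was 5000 bases for the 105 plus-strand peaks and 1075 for the 131 minus-strand peaks. Of 95 plus-strand peaks of protein-coding genes, 54 ran past the 3′ end of the gene, against 19 of 114 on the minus strand. With similar peaks drawn from the same strand alone, RPL11 moved above the median (12 of 20 lower) and RPLP1 stayed below it (14 of 34 lower). The part of the strand in the values of RPL11 and RPLP1 was not tested otherwise.

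Where a peak lay along its gene depended, for RPL6, on the start taken. The peak centre lay at 49.7% of the listed gene length in RPLP0, at 65.5% in RPL29, at 68.7% in RPL24 and at 78.7% in RPL11. In RPL6 it lay at 76.1% for the inner peak and at 93.4% for the 3′ peak, whose edge was 36 bases from the gene's end, when measured from the listed start at 112418838. Measured from the RefSeq start at 112409285, whose sequence is shown, the inner peak was centred at 20.4% and the 3′ peak at 78.1% of the way to the gene's end. From the other RefSeq start, at 112411442, the centres lay at 47.8% and 85.7%. The inner peak was therefore near the 5′ end by one start and not by another, while the 3′ peak lay towards the 3′ end by all 3. Exon positions were not used here, so exons and introns under the peaks are not told apart. By position alone, the RPLP1 peak also overlapped LINC02896, a long non-coding RNA gene, by 3731 bases, and a small nucleolar RNA gene (LOC124903594) downstream of RPLP1 by 209 bases. The RPL24 peak lay inside LOC124906262, a longer gene that spans RPL24. RefSeq lists 34 pseudogenes named for RPL29, 32 for RPL6, 13 for RPLP1, 12 for RPLP0, 8 for RPL24 and 5 for RPL11. None of them had a peak of its own, and reads shared with such near-identical copies make the counts of these genes uncertain.

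**Figure D3:**
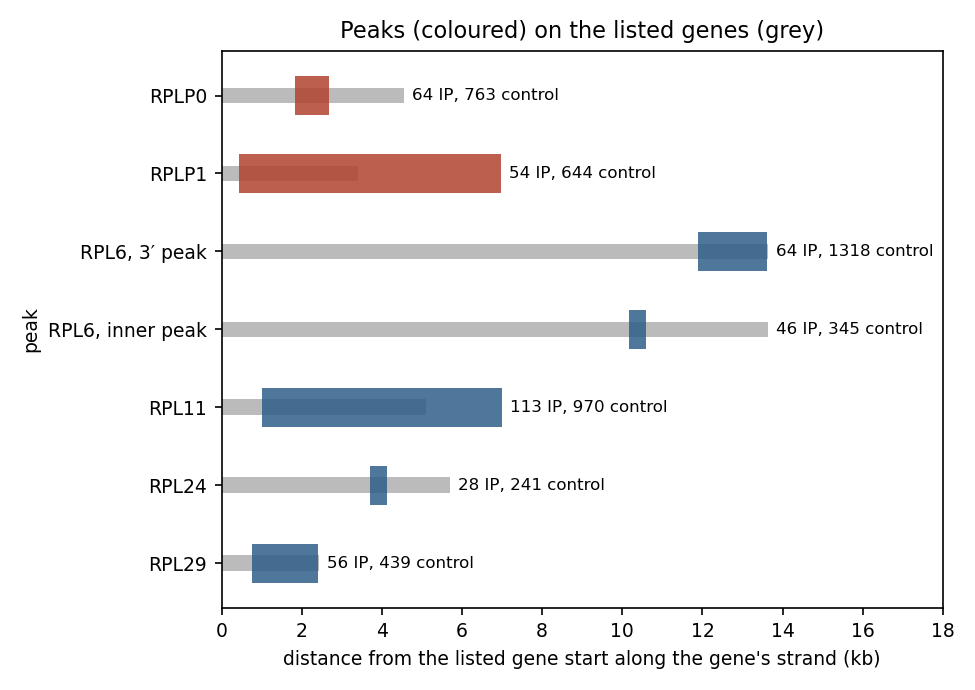
Position of the 7 peaks along their genes, in kilobases from the listed gene start along the gene's strand. Grey bars are the listed genes, red bars the peaks of the stalk genes and blue bars those of the RPL genes, with the reads of both libraries beside them. The peaks of RPLP1 and RPL11 run past the gene's 3′ end and the others lie inside the gene, where RPL6 is drawn from its listed start, upstream of both RefSeq starts.

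Other ribosomal protein genes had lower ratios than these 6 in most cases. Of 73 other genes of the family, 16 had a peak, 8 of the large subunit and 8 of the small subunit, and their median ratio was 0.0282, against 0.100 for the 6 genes. Over the 12 of them whose peak was centred inside the gene, the median was 0.0383. This comparison was not matched on control signal. The interval lay wholly below the median of all peaks for 14 of the 16, against 40.3% of all peaks. At least 2-fold under that median were 13 of the 16, against 33.1% of all peaks. These 16 peaks held 413 or more control reads each, against a median of 145 over all peaks, so the shares are not like for like. Of the 16, 11 lay below RPL6, the lowest of the 6 genes, 3 lay between RPL6 and RPL29 and 2 lay above RPL29. The highest were RPL3, a large core protein of the subunit, with 318 IP and 836 control reads (0.380, 0.333 to 0.433), and RPL7A (0.211, 0.184 to 0.240). Only 13.0% of the bases of the RPL7A peak lay in RPL7A, and the peak ran 10839 bases past the gene's 3′ end. The lowest were RPL12, whose protein sits at the base of the stalk beside P0, with 12 IP and 1402 control reads (0.00856, 0.00441 to 0.0150), and RPS4X. RPL12 thus lay far below RPLP0 and RPLP1. RPL5, the partner of RPL11 in the 5S particle, had 26 IP and 1534 control reads (0.0169, 0.0110 to 0.0249), and RPL11 had 6.87 times its ratio (4.41 to 11.0). Only 40.5% of the bases of the RPL5 peak lay in RPL5, and the peak ran 8326 bases past the gene's 3′ end. The contrast is thus one of peaks and not of the genes alone. Of 17 genes for assembly of the large subunit, and of the other 6 genes of a list around the 5S particle and p53, 0 had a peak. The peak list named 238 genes in all, against 15843 protein-coding genes with a start sequence. These counts of 0 are therefore not a result about the assembly or p53 genes.

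**Figure D4:**
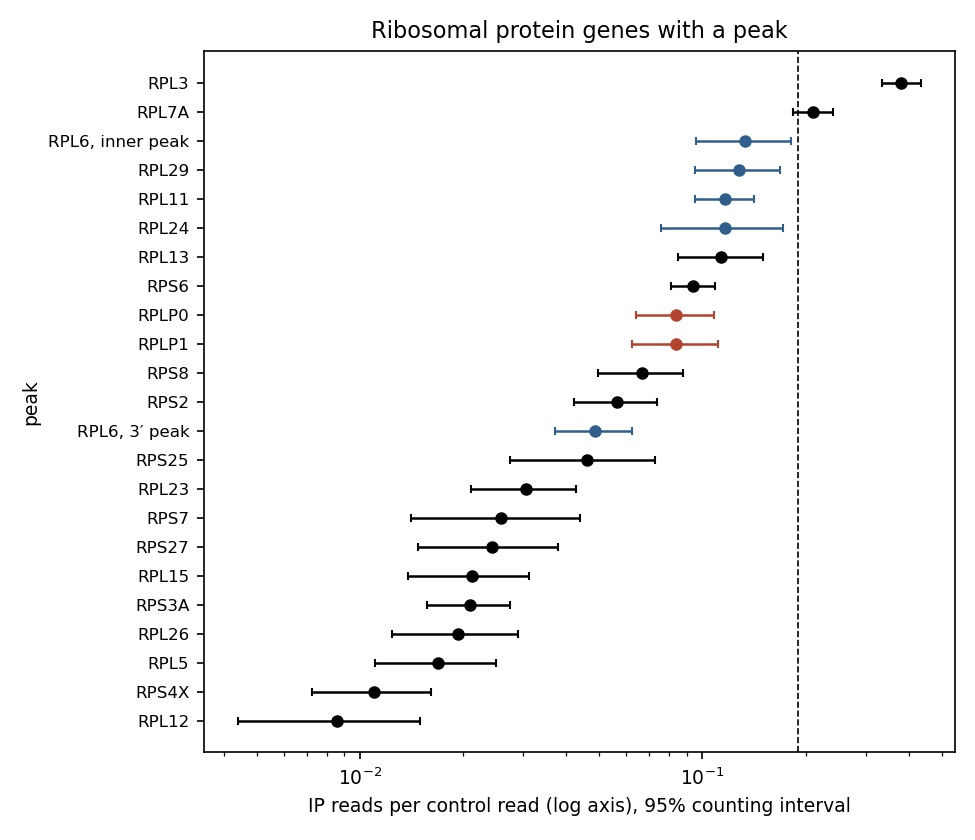
IP reads per control read on a log axis for every peak of a ribosomal protein gene, ordered by ratio, with exact 95% counting intervals. Red marks the stalk genes, blue the RPL genes described here and black the other ribosomal protein genes, and the dashed line is the median of all peaks (0.190). The only peaks to the right of the line are those of RPL3 and RPL7A, and the RPL7A peak lies mostly past the gene's 3′ end.

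The authors' deposited scores placed these peaks differently from the ratio. In the authors' deposited table the log-odds score was 644 for RPLP0, rank 7 of 236 from the top, and 95.3 for RPLP1, rank 96. The scores in the authors' deposited table were 459 for the inner peak and 384 for the 3′ peak of RPL6, ranks 12 and 19. By ratio the same peaks ranked, from the top, 167 (RPLP0), 168 (RPLP1), 136 and 197. The authors' deposited p-value was exactly 0 for 5 of the 7 peaks and for 62 of all 236, and it was 1.55e-207 for RPL11 and 2.86e-124 for RPLP1, by a method that the sources used here do not give. Over the 224 peaks with control reads, the score rose with control reads per kilobase (rank correlation 0.78, a description), as it did from RPLP1 to RPLP0.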

How the data were processed

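RIP-seq of ARP1 cells gave 1 IP and 1 input library. The authors deposited a list of peaks on GRCh38 with whole-read counts per peak in both libraries, without normalization. The log-odds score and the p-value of each peak are the authors' deposited values and only describe or rank peaks. FastQC 0.11.5 and HOMER are named in the submitters' processing notes. The aligner and peak caller are not given in the sources used here. Another 2 columns of reads per kilobase were not used.

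The 279 rows were reduced to 236 distinct peaks. Unnamed genes took a RefSeq name where both spans overlapped by at least 80%. Ratios, intervals and windows were computed in Python 3.11.15 with scipy 1.17.1. The intervals were run on simulated reads with counting error only, which checks the code and not how they fit real reads. A peak with 0 control reads was given a floor of 3 control reads. No floor applied to the genes described. Genes named are the 6 members, the pair of highest and the pair of lowest other ribosomal protein genes, the closest protein-coding peak by control signal, and listed translation factors with a peak. RPL5, the pseudogenes and the translation factor genes outside the list were chosen after their values were seen. The members and gene lists were chosen with earlier results of these data known. Alternatives covered how peaks are joined, the window, what is matched and which peaks are compared.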

Additional observations from a re-analysis of the deposited data

How the results depend on the processing

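With 1 library a group, depth across the libraries is unknown and counting error is the only error given. Of 46 alternative values, 39 stayed within the counting interval, the spread or 1.5 times the main count, and 7 moved. Many of the 39 could not move. For a gene with 1 peak, the sum, the median and the strongest peak are one value, and no member peak was shared with another listed gene. Adding 1 control read to peaks with 241 to 1318 could hardly change their ratios. The count of 39 therefore does not measure how stable the results are. The stalk ratio over the RPL ratio was 0.905, moved to 0.702 without RPL6 and to 0.689 without its 3′ peak alone, an alternative chosen after the values were seen, and lay between 0.702 and 1.01 as each gene was left out. As a median over genes it was 0.721. RPL6 moved from 0.0661 as a sum to 0.0909 as the median of its peaks and 0.133 as its strongest peak. The count of members above their similar peaks was 4, and 7 when matched on control reads per peak. It was 4 for windows of 1.5-fold and 3-fold, for protein-coding peaks, without ribosomal protein genes, for peaks with a deposited false discovery rate under 1e-20 and without the chromosome 21 interval, and 5 on the same strand. The last 2 of these were added after the data were seen. The count of members at least 2-fold under the median of all peaks was 3. It was 1 with the median over peaks outside that interval, without a share of all peaks beside it. The count with an interval wholly below the median was 7, and 4 with that median, a setting added after the values were seen. No paired analysis was possible because each group has 1 library.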

Other observations

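EEF1G, which encodes a subunit of the elongation factor that reloads eEF1A with GTP, was the only one of 12 listed translation factor genes with a peak, and it had 3. With 238 genes named in the whole peak list, this count is not a result about translation factors. Those 12 leave out other translation factor genes with peaks, among them EIF4B, EIF3A, EIF3C and EIF1AX. The ratios of these peaks ran from 0.0635, in EIF4B, to 5, in EIF1AX with 3 control reads. The EEF1G peaks held 20 IP and 594 control reads at the 3′ end (ratio 0.0337, 0.0204 to 0.0525), 97 and 607 in the middle (0.160, 0.128 to 0.198) and 60 and 551 nearest the 5′ end (0.109, 0.0820 to 0.142). As in RPL6, the peak nearest the 3′ end had the lowest ratio. Among 19 protein-coding genes with several peaks, this was so in 9, and RPL6 ranked 3 by how far the other peaks exceeded the last one, after MEF2C and EEF1G. The pattern was thus not general, and it was looked at after the values of RPL6 were seen.

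Processed pseudogenes of other ribosomal protein genes had peaks of their own. RPL7P9 had 30 IP and 532 control reads (0.0564, 0.0377 to 0.0815), RPL17P6 had 14 and 1030 (0.0136, 0.00740 to 0.0229) and RPL13AP5 had 70 and 432 (0.162, 0.124 to 0.209). RPL13AP5 lay above all 6 genes described here, whose highest was RPL29, though the intervals of both overlap. Reads of these copies and of their parent genes cannot be told apart from the list.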
